A study of Homo sapiens with 12 samples.

Results

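Expression of 10 genes of the NF-kB feedback and survival programme was examined in 2 human ovarian cancer cell lines, untreated or exposed to ascites. The genes were chosen by name: the subunits NFKB1, NFKB2 and RELB, the inhibitors NFKBIA, NFKBIE and TNFAIP3, the survival genes BIRC3 and SOD2, and the targets ICAM1 and PTX3. They are 10 of the 19251 genes with deposited values, and all 10 were among the 17616 genes that passed the filter on low values (a normalised read count of at least 10 in at least 3 libraries). No expression value entered the choice, although the list was drawn up with earlier results of these data known.

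The cells were CAOV3, labelled a high grade serous epithelial line, and TOV21G, labelled a clear cell epithelial line, both labelled wild type. Control cells were grown in medium with 10% fetal bovine serum and received nothing further. Treated cells, seeded at 250000 per well in 1.5 mL of the same medium, received 150 µL of ovarian cancer ascites (10%) for 16 h. The serum was therefore common to all 4 groups. Each group held 3 libraries, which the labels number but do not describe as separate cultures or days, so the p-values measure the spread between these libraries, which may be technical. Each histological type was represented by 1 line, and line and type cannot be told apart. Whether the ascites came from 1 patient or a pool is not given in the sources used here, and no vehicle control is described.

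NF-kB is a family of dimeric transcription factors held in the cytoplasm by inhibitor proteins of the IkB family. Receptors for tumour necrosis factor, interleukin-1 and bacterial products switch on the IkB kinase complex, the inhibitor is degraded, and the dimer enters the nucleus. Among the genes it then transcribes are its own subunits and its own inhibitors, which end or sustain the signal, and proteins that block cell death. A slower, non-canonical branch works through processing of the NFKB2 precursor and RELB. In ovarian cancer, ascites is the fluid of the abdominal cavity in which tumour cells spread, and it carries cytokines that can engage these receptors.

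The libraries held 26697609 to 34491304 reads. All expression values are normalised read counts as the authors deposited them, and every ± is the SD over the n = 3 libraries of a group. The epithelial markers EPCAM, KRT8, KRT18, KRT19 and CDH1 summed to 131700 to 162600 in the CAOV3 libraries and 10410 to 12420 in the TOV21G libraries. In CAOV3 that sum was higher with ascites (153300 to 162600) than without (131700 to 132800). KRT8 (66470 ± 562 to 81370 ± 2430) and KRT18 (47680 ± 404 to 59870 ± 1720) made up that difference and were called higher there (limma adjusted p = 0.0231 and 0.0102), while KRT19 read 16840 ± 318 and 16200 ± 658. CDH1 was lower with ascites without overlap (424.7 ± 33.1 and 271.7 ± 8.43; limma adjusted p = 0.438, edgeR 0.00415). The serous and Mullerian markers PAX8, WT1 and MUC16 summed to only 33.8 to 39.9 in CAOV3, the line labelled serous. In TOV21G they summed to 7041 to 7535 in controls and 8692 to 9587 with ascites, nearly all of it PAX8 (7032 ± 259 and 8852 ± 448; limma adjusted p = 0.161, edgeR 0.00134). Of 11 leukocyte markers only CD14 and ITGAM were listed, and their sum was 77.2 to 97.9 in CAOV3 controls and 70.6 to 96.2 with ascites, and 41.9 to 64.0 in TOV21G controls and 61.9 to 65.4 with ascites. The sums of the leukocyte markers overlapped between control and ascites in each line. Mesothelial markers summed to 47.0 to 76.2 in CAOV3 and 582.5 to 659 in TOV21G, but they did not go one way. In controls MSLN (14.8 in CAOV3, 509.9 in TOV21G) and LRRN4 (0.33 and 96.5) were higher in TOV21G. CALB2 (43.0 and 0.36) and UPK3B (9.19 and 5.40) had the higher mean in CAOV3. PECAM1, the only one of 3 endothelial markers that was listed, read at most 11.3. Fibroblast markers summed to 4214 to 4914 in CAOV3 controls and 3812 to 4009 with ascites, without overlap, and to 1822 to 2039 and 1768 to 1927 in TOV21G. Most of the CAOV3 sum was LUM (4086, 3898 and 4604 in controls, 3699, 3532 and 3711 with ascites, limma adjusted p = 0.936). In bulk RNA, fewer cells of a type and less RNA per cell cannot be told apart.

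The sequences below show where the binding motif of NF-kB lies at the start sites of these genes, since the members are known as direct targets. The NF-kB consensus, a 10-base motif searched on both strands, was looked for in RefSeq promoter windows (GRCh38.p14) running from 250 bases before to 50 bases after each annotated transcription start. The motif was GGGRNNYYCC, where R is A or G, Y is C or T and N is any base. Windows were at hand for 8 of the 10 genes, 14 windows in all, and not for RELB and NFKBIE. At least 1 match lay in a window of NFKB1, NFKB2, NFKBIA, TNFAIP3, BIRC3 and PTX3, that is 75% of the 8 genes, against 13.3% of all 27305 genes with a window, 17.2% of the tested genes and 35.9% of the other NF-kB pathway genes. A match is a description of the letters and not a shown binding site. The windows of SOD2 and ICAM1 held no match to this pattern. Sites that depart from the pattern or lie outside the windows were not searched for.

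In BIRC3 the stretch chr11:102317234-102317449 (plus strand, upstream of the annotated gene) held matches at -199 to -190 and -135 to -126 from the start. In NFKBIA the stretch chr14:35404750-35404999 (minus strand, upstream of the annotated gene) held 1 match at -81 to -72. Capitals mark the matches, and both stretches are printed because they show the position of the motif ahead of a survival gene and a feedback inhibitor.
BIRC3: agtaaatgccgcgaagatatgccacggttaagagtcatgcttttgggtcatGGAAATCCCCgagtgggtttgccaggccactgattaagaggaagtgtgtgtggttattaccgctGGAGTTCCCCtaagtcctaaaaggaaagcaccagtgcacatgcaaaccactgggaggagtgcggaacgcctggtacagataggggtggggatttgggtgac
NFKBIA: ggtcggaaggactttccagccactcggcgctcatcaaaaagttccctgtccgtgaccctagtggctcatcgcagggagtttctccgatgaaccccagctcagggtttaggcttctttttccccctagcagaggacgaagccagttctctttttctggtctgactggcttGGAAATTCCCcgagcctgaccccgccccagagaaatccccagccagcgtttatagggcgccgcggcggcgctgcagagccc

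For the other genes 30 bases around each match are given. The TNFAIP3 stretch chr6:137867188-137867217 (plus strand) held a pair of matches 2 bases apart, at -67 and -55, within an exon annotated by GENCODE 29. The PTX3 stretch chr3:157436743-157436772 (plus strand) held overlapping matches from -97. The NFKB1 stretch chr4:102501300-102501329 (plus strand) held a match at -49. The NFKB2 stretches chr10:102394461-102394490 and chr10:102395674-102395703 (plus strand) belong to different annotated starts, with matches from -107 and at -21. Those starts, at 102394578 and 102395705, are labelled upstream and downstream relative to each other. The window of a start further upstream, at 102394110, held no match. Further NFKB2 matches at -78 and -176 are not printed.
TNFAIP3: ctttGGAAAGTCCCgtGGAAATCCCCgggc
PTX3: accaaattcaGGGGAACTCCCgttaccgca
NFKB1: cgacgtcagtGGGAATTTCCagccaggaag
NFKB2, upstream start: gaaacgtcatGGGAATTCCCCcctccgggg
NFKB2, downstream start: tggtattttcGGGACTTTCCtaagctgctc

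**Figure D1:**
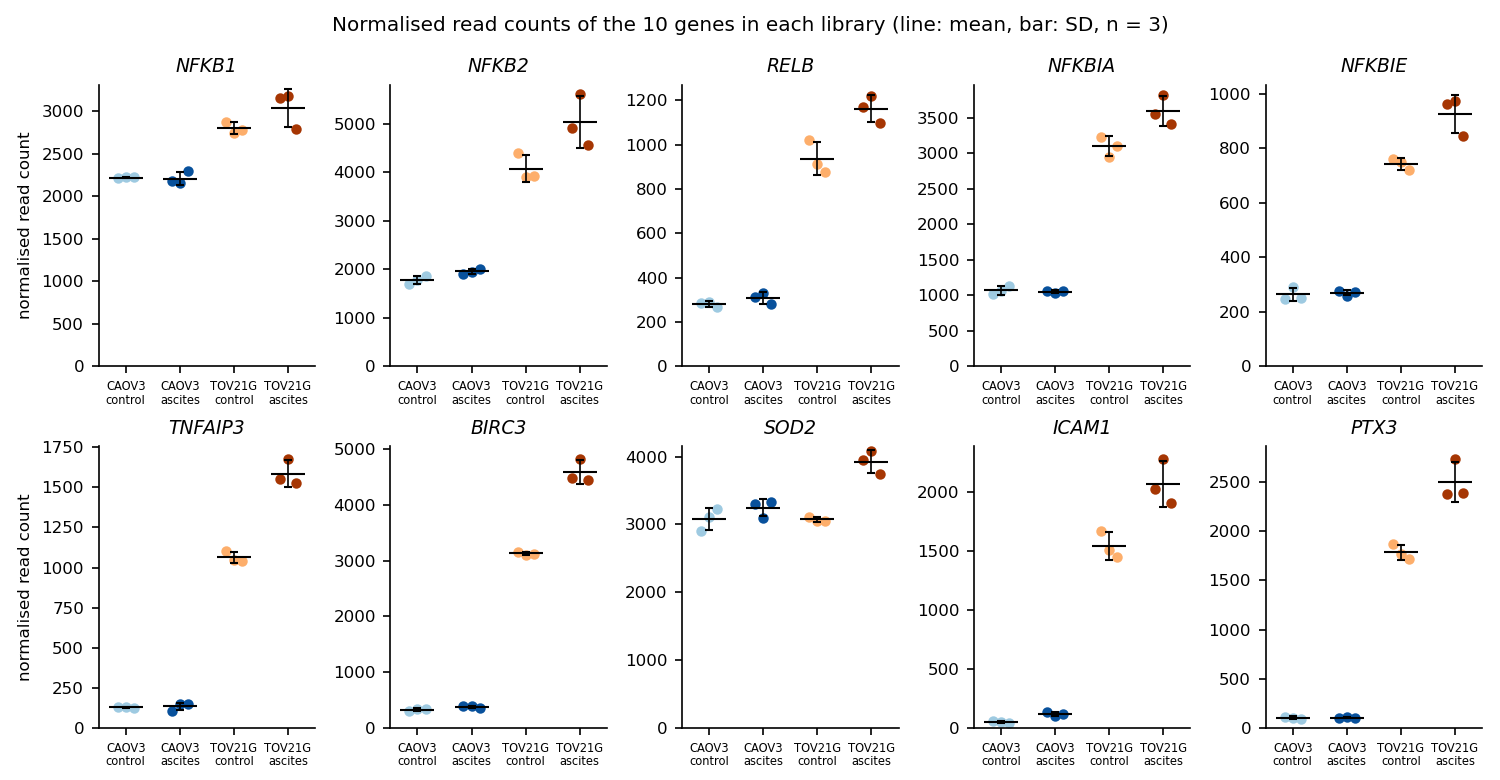
Normalised read counts (y axis, linear, from 0) of the 10 genes in each library, by line and treatment (x axis); points are libraries, the horizontal line is the mean and the bar the SD of 3 libraries. TOV21G lay above CAOV3 for every gene but SOD2, whose controls were at 3077 in CAOV3 and 3073 in TOV21G, and ICAM1 rose in CAOV3 from 51.0 to 116.4.

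GENCODE 29 on GRCh38 places the subunit genes at chr4:102501329-102617302 (NFKB1, plus strand), chr10:102394110-102402529 (NFKB2, plus) and chr19:45001430-45038198 (RELB, plus). The inhibitors lie at chr14:35401511-35404749 (NFKBIA, minus), chr6:44258166-44265788 (NFKBIE, minus) and chr6:137867188-137883312 (TNFAIP3, plus). BIRC3 lies at chr11:102317450-102339403 (plus), SOD2 at chr6:159669057-159745186 (minus), ICAM1 at chr19:10270835-10286615 (plus) and PTX3 at chr3:157436789-157443628 (plus). The build used for the counting is not given in the sources used here, so these positions describe the annotation only.

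The question of how the lines differed before treatment was answered first, by TOV21G controls against CAOV3 controls in limma. A gene was called at a Benjamini-Hochberg adjusted p under 0.05 over all tested genes. Untreated TOV21G cells held more RNA of 9 of the 10 genes than untreated CAOV3 cells, from 1.26-fold for NFKB1 to 29.8-fold for ICAM1, and the same level of SOD2 within the spread. The lines differed in most of the transcriptome: 82.2% of tested genes were called in either direction and 40.8% were called higher in TOV21G. The members' median log2 difference was 1.63, against -0.02 over all tested genes.

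Among the subunits the difference was smallest for NFKB1, the precursor of the p50 subunit. NFKB1 read 2209, 2227 and 2220 in CAOV3 controls and 2876, 2744 and 2778 in TOV21G controls (log2 difference 0.34, SE 0.05, limma adjusted p = 2.38e-05). Every TOV21G library lay above every CAOV3 library, by a small margin. NFKB2, the precursor of the p52 subunit of the non-canonical branch, read 1690, 1771 and 1855 in CAOV3 and 4402, 3894 and 3932 in TOV21G, 2.30-fold higher (95% interval 2.07 to 2.55). RELB, its usual partner, read 287.1, 291.5 and 266.2 in CAOV3 and 1019, 913.2 and 878.4 in TOV21G, 3.31-fold higher (2.96 to 3.71). The pair of genes named for the non-canonical branch thus stood further apart between the lines than NFKB1 did. That was not particular to the branch, since the inhibitors NFKBIA (2.89-fold) and NFKBIE (2.82-fold) stood further apart than NFKB2. MAP3K14, the kinase of that branch, read 997.3 ± 37.4 in CAOV3 controls and 689.1 ± 39.8 in TOV21G controls, the other way.

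The inhibitors among the members were all higher in TOV21G. NFKBIA, which encodes IkB-alpha, read 1016, 1067 and 1138 in CAOV3 controls and 3236, 2954 and 3111 in TOV21G controls, a 2.89-fold difference (2.66 to 3.13). NFKBIE, which encodes IkB-epsilon, read 248.5, 290.4 and 252.4 against 760.9, 749.6 and 719.6, a 2.82-fold difference (2.52 to 3.15). TNFAIP3, a ubiquitin-editing enzyme that shuts down signalling above the IkB kinase, read 129.4, 131.2 and 125.7 in CAOV3 and 1100, 1048 and 1040 in TOV21G. Its 8.20-fold difference (7.06 to 9.52) was the widest of these inhibitors, and the groups were far apart in every library. The 4 other IkB family genes tested did not share one direction. Of them 1 was called higher in TOV21G and 2 lower, with a median log2 difference of -0.155. Over all tested genes 40.8% were called higher and 41.4% lower.

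Of the survival genes, BIRC3, a ubiquitin ligase of the inhibitor of apoptosis family, read 305.3, 334.5 and 345.4 in CAOV3 controls and 3159, 3109 and 3122 in TOV21G controls, 9.52-fold higher (8.77 to 10.3). SOD2, the manganese superoxide dismutase of mitochondria, read 2903, 3102 and 3224 in CAOV3 and 3113, 3055 and 3051 in TOV21G. The SOD2 groups overlapped, and the log2 difference was 0.00 with a 95% interval of -0.10 to 0.10 (limma adjusted p = 0.994). Scaling each line by itself moved the median of all genes from -0.02 to 0.14 and SOD2 to 0.17, where SOD2 was called, so its placement follows the centring of the lines. The SOD2 count is also uncertain because GENCODE 29 places another gene model of the same name on its strand and WTAP on the other strand, and the strandedness of the counting was not given in the sources used here.

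The widest baseline differences were in ICAM1, the adhesion molecule that binds leukocyte integrins, and PTX3, a secreted pattern recognition protein. ICAM1 read 57.9, 49.5 and 45.5 in CAOV3 controls and 1674, 1514 and 1447 in TOV21G controls, 29.8-fold higher (25.3 to 35.3). PTX3 read 115.8, 104.3 and 88.1 in CAOV3 and 1869, 1773 and 1715 in TOV21G, 17.3-fold higher (15.1 to 19.8). All 9 calls held in each of the 12 fits that left out 1 library. On the opposite strand GENCODE 29 annotates VEPH1 across PTX3, a pair of transcripts across ICAM1 and 1 across TNFAIP3, which without strand cannot be told apart from them; VEPH1 itself read 186.8 ± 7.69 in CAOV3 and 287.6 ± 24.3 in TOV21G controls.

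Levels of different genes were compared per kb of exon. The length was that of all exons GENCODE 29 annotates for a gene, merged over its transcripts. It was 16493 bases for SOD2 and 2373 for NFKBIA. Which transcripts the cells made was not measured. In CAOV3 controls the order of mean levels per kb was NFKBIA (452.4), NFKB2 (395.1), NFKB1 (354.5), SOD2 (186.5), NFKBIE (102.2), RELB (92.8), PTX3 (53.0), BIRC3 (43.7), TNFAIP3 (25.5) and ICAM1 (13.8), and of these neighbours only PTX3 and BIRC3 had overlapping libraries. In TOV21G controls it was NFKBIA (1306), PTX3 (920.3), NFKB2 (909), NFKB1 (447.3), ICAM1 (416.9), BIRC3 (416.3), RELB (308.7), NFKBIE (288), TNFAIP3 (210.4) and SOD2 (186.3). There PTX3 overlapped NFKB2, ICAM1 overlapped NFKB1 and BIRC3, and RELB overlapped NFKBIE. NFKBIA thus had the highest level per kb of annotated exon of the 10 genes in both lines, while PTX3 stood 7th in CAOV3 and 2nd in TOV21G. The order depends on the lengths used. Before division by length, SOD2 read 3077 ± 162 and NFKBIA 1074 ± 61.5 in CAOV3 controls.

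**Figure D2:**
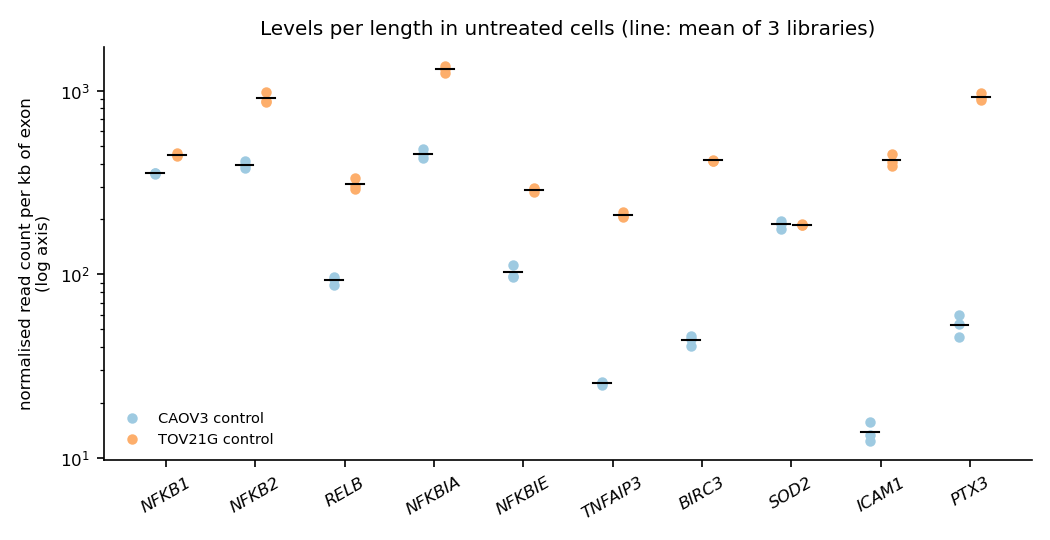
Normalised read count per kb of exon (y axis, log scale) of the 10 genes in untreated cells; points are the 3 control libraries of each line and the line is their mean. ICAM1 ran from 13.8 in CAOV3 to 416.9 in TOV21G, while SOD2 lay at 186.5 and 186.3.

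In TOV21G, exposure to ascites for 16 h was accompanied by higher RNA of 4 of the 10 genes, both survival genes, 1 inhibitor and 1 secreted target among them, by less than 1.5-fold. TNFAIP3, BIRC3, SOD2 and PTX3 were called higher by limma, from 1.28-fold for SOD2 to 1.49-fold for TNFAIP3, and no member was called lower. That is 4 of 10 members where 0.142% of tested genes (25 of 17616) were called higher. All 10 members had a log2 change above 0, as did 41.7% of tested genes, and their median change was 0.33 against -0.02 over all tested genes. The number called depended on the tool: edgeR's quasi-likelihood test on the recovered reads called 9 of 10 higher, all but NFKB1, where it called 0.29% of tested genes higher, and DESeq2 called 9 as well.

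TNFAIP3 read 1100, 1048 and 1040 in TOV21G controls and 1550, 1679 and 1528 with ascites. Every treated library lay above every control, the lowest of them 1.39 times the highest control. The fold change was 1.49 (95% interval 1.28 to 1.73, limma adjusted p = 0.0261). BIRC3 read 3159, 3109 and 3122 in controls and 4486, 4832 and 4456 with ascites, again without overlap, the fold change being 1.47 (1.35 to 1.59, limma adjusted p = 0.000493). The BIRC3 controls were close together, with a SD of 25.9 around a mean of 3130. SOD2 read 3113, 3055 and 3051 in controls and 3946, 4084 and 3741 with ascites, a 1.28-fold change (1.19 to 1.37, limma adjusted p = 0.00524). PTX3 read 1869, 1773 and 1715 in controls and 2380, 2734 and 2391 with ascites, a 1.40-fold change (1.22 to 1.60, limma adjusted p = 0.0387).

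The other inhibitors had estimated changes above 0 in TOV21G that did not pass the limma threshold. NFKBIA read 3236, 2954 and 3111 in controls and 3550, 3831 and 3417 with ascites, and NFKBIE 760.9, 749.6 and 719.6 against 960.8, 971.6 and 844.7. Neither gene's groups overlapped, and the log2 changes were 0.22 for NFKBIA (SE 0.05, limma adjusted p = 0.157, edgeR 0.0101) and 0.31 for NFKBIE (SE 0.07, limma adjusted p = 0.131, edgeR 0.0101). Of the IkB genes in the pair, the one with the smaller baseline level thus had the larger estimated change, with overlapping intervals (0.10 to 0.33 and 0.15 to 0.47).

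Of the subunits, NFKB2 read 4402, 3894 and 3932 in TOV21G controls and 4914, 5612 and 4562 with ascites (log2 change 0.30, SE 0.07, limma adjusted p = 0.122, edgeR 0.00728). RELB read 1019, 913.2 and 878.4 in controls and 1172, 1219 and 1099 with ascites (0.31, SE 0.08, limma adjusted p = 0.134, edgeR 0.00916). The treated libraries of both genes lay above all controls, although NFKB2 varied most of the members with ascites (SD 535). NFKB1 read 2876, 2744 and 2778 in controls and 3153, 3172 and 2784 with ascites, so that 1 treated library lay among the controls (0.12, SE 0.05, limma adjusted p = 0.502, edgeR 0.217). ICAM1 read 1674, 1514 and 1447 in controls and 2025, 2281 and 1906 with ascites, without overlap, a change of 0.42 (SE 0.11, limma adjusted p = 0.186, edgeR 0.00104).

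In all, the 3 treated TOV21G libraries lay above the 3 controls for 9 of the 10 members, where this held for 4.16% of tested genes, and all 10 had an unadjusted limma p under 0.05, as had 9.17% of tested genes. The calls of BIRC3 and SOD2 held in each of the 12 fits that left out 1 library. TNFAIP3 lost its call without any 1 of the 6 TOV21G libraries (limma adjusted p up to 0.116), and PTX3 without any of those 6, without CAOV3 control 2 or without any CAOV3 ascites library (up to 0.175), while their log2 changes stayed between 0.53 and 0.60 and between 0.42 and 0.52. PAX8 also stood higher in the treated TOV21G libraries without overlap, as given above, and its part in the result was not tested.

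The TOV21G libraries themselves were uneven. Control 1 held the highest value of its group for 10 of 10 members (49.0% of all tested genes), and ascites 2 did so among the treated libraries (51.2% of all tested genes). The nuclear noncoding RNA KCNQ1OT1 read 95.4, 656.3 and 234.2 in TOV21G controls and 731.3, 234.5 and 1511 with ascites, and was thus lowest in the same pair of libraries. Transcripts of the mitochondrial genome made up 2.18%, 1.77% and 2.35% of the signal in controls and 1.61%, 2.71% and 1.49% with ascites. With control 1 and ascites 2 both left out, a step chosen after seeing the data, the log2 changes in TOV21G were close to those with all libraries, at 0.56 for TNFAIP3, 0.52 for BIRC3, 0.33 for SOD2 and 0.45 for PTX3, and limma then called BIRC3, SOD2 and NFKB2. Ascites 1 against control 3, neither of which was the highest of its group for any member, though control 3 was the lowest for 6, gave ratios from 1.14 for NFKB1 to 1.49 for TNFAIP3.

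**Figure D3:**
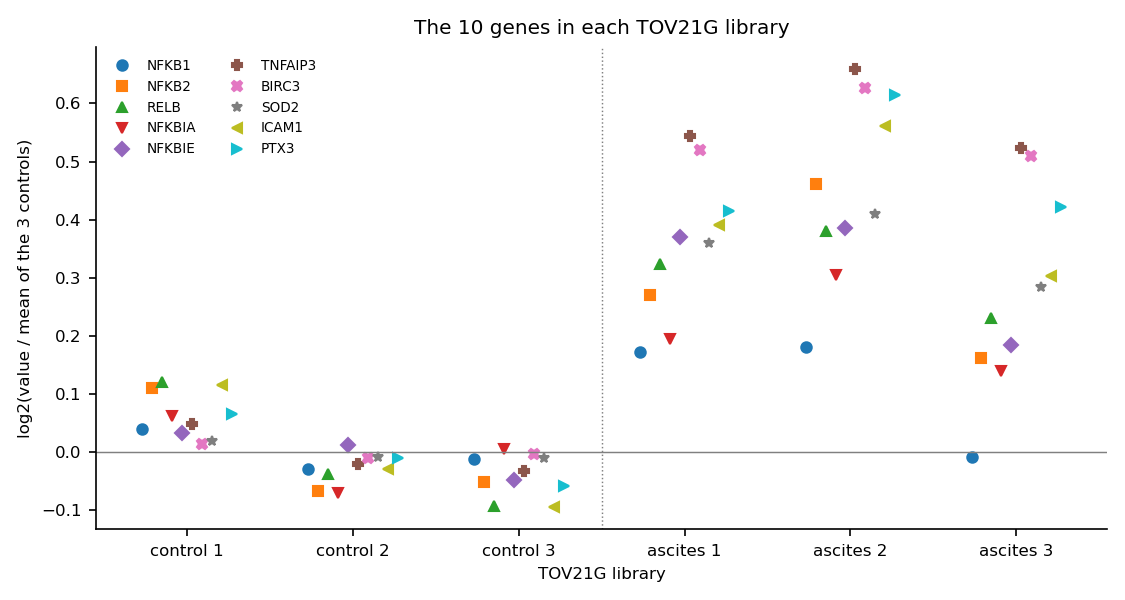
log2 ratio of each library's value to the mean of the 3 TOV21G controls (y axis) for the 10 genes (symbols) in each TOV21G library (x axis). All members lay above 0 in control 1, ascites 2 was the highest treated library for all 10, and in ascites 3 NFKB1 (2784) lay among the controls.

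In CAOV3, ICAM1 was the member called higher with ascites, and none of the other 9 was called in the main limma fit. ICAM1 read 57.9, 49.5 and 45.5 in controls and 131.3, 101.2 and 116.6 with ascites. Every treated library lay well above every control. The fold change was 2.26 (95% interval 1.91 to 2.67, limma adjusted p = 0.000109), and the call held in each of the 12 fits that left out 1 library. It was the only member called by the main limma fit, where 0.636% of tested genes were called higher. Even so, ICAM1 with ascites in CAOV3 (116.4 ± 15.0) remained below its level in untreated TOV21G (1545 ± 116). In these libraries KRT8 and KRT18 were higher, CDH1 and the fibroblast marker sum lower, as given above, and their part in the result was not tested.

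BIRC3 read 305.3, 334.5 and 345.4 in CAOV3 controls and 394.9, 392.6 and 362.2 with ascites. The groups did not overlap, but the 1.17-fold change (1.08 to 1.27) missed the threshold (limma adjusted p = 0.0647, edgeR 0.0632). It was called with TMM scaling, with within-line scaling and with array weights. It was also called, at a limma adjusted p of 0.0439, when TOV21G control 1 and ascites 2 were left out of the shared fit. NFKB2 read 1690, 1771 and 1855 in controls and 1910, 1955 and 2010 with ascites, also without overlap (log2 change 0.15, SE 0.07, limma adjusted p = 0.407). NFKB2 was called when only the CAOV3 libraries were fitted. ICAM1, BIRC3 and NFKB2 made 3 of 10 members whose treated libraries all lay above the controls, where this held for 11.4% of tested genes.

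For the other 7 members the CAOV3 groups overlapped. NFKB1 (2218 ± 9.13 and 2207 ± 76.3 without and with ascites), RELB (281.6 ± 13.5 and 308.8 ± 25.1) and NFKBIA (1074 ± 61.5 and 1050 ± 19.7) changed by -0.01, 0.13 and -0.03 on the log2 scale. NFKBIE (263.8 ± 23.2 and 269.9 ± 9.78) and TNFAIP3 (128.8 ± 2.82 and 134.3 ± 22.5) changed by 0.04 and 0.05. TNFAIP3 with ascites split into 108.3 in 1 library and 147.2 and 147.3 in the others, a wider spread than in the controls. SOD2 (3077 ± 162 and 3244 ± 127) and PTX3 (102.7 ± 13.9 and 103.1 ± 3.70) changed by 0.08 and 0.01. The 95% interval of PTX3 was -0.18 to 0.21 in CAOV3 and 0.29 to 0.68 in TOV21G. That of TNFAIP3 was -0.17 to 0.26 in CAOV3 and 0.36 to 0.79 in TOV21G. The difference between the lines, tested below, was called by limma for neither gene (adjusted p = 0.182 and 0.171). edgeR called it for TNFAIP3 (adjusted p = 0.0456) and not for PTX3 (0.0956). The members' median log2 change in CAOV3 was 0.06, against 0.00 over all tested genes.

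**Figure D4:**
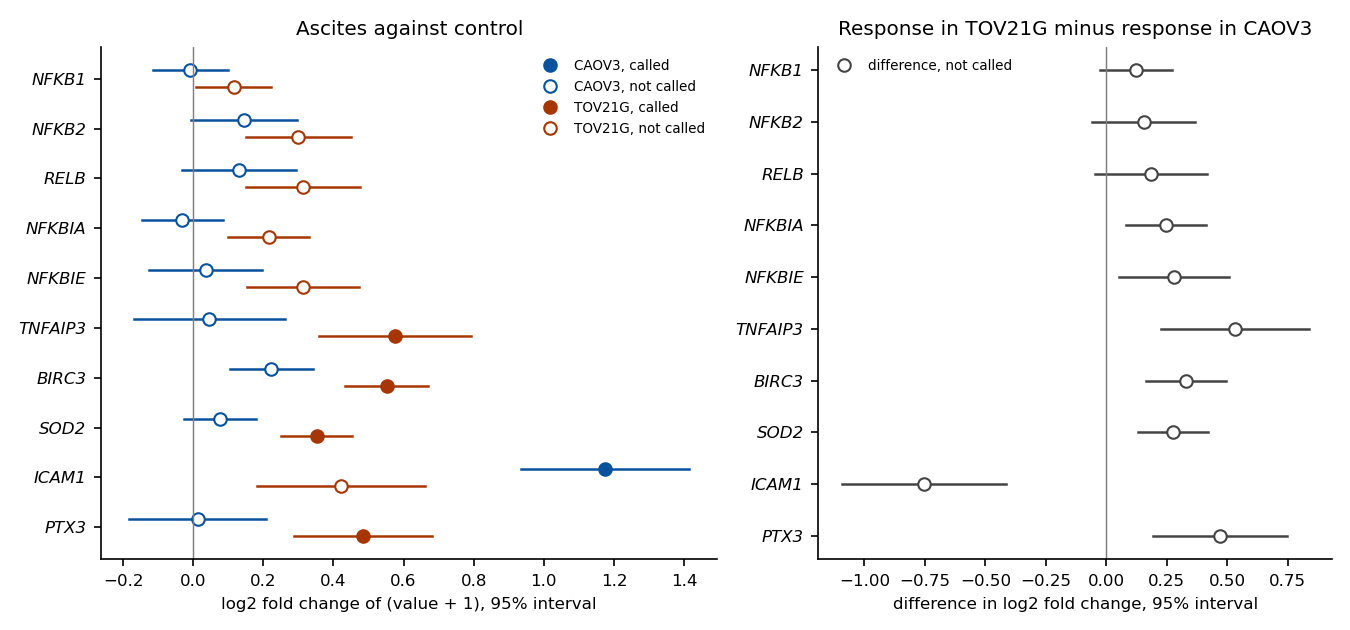
Left, log2 fold change with ascites (x axis) of the 10 genes (y axis) in CAOV3 and TOV21G; right, the difference of those changes; bars are 95% intervals from limma and filled points are called. ICAM1 in CAOV3 (1.18) and TNFAIP3, BIRC3, SOD2 and PTX3 in TOV21G were called, and no difference was.

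Whether the lines responded differently was tested as the difference between their changes (TOV21G minus CAOV3). limma called no member, where 0.545% of tested genes were called either way. 7 of 10 members had an unadjusted p under 0.05 in this test, as had 11.9% of tested genes. edgeR called 4 members, BIRC3, SOD2 and TNFAIP3 with the larger change in TOV21G and ICAM1 with the larger change in CAOV3, where it called 0.84% of tested genes, and DESeq2 called the same number.

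The estimated difference for ICAM1 was -0.75 on the log2 scale (95% interval -1.09 to -0.41, limma adjusted p = 0.0566, edgeR 0.0418). It was called by limma without CAOV3 control 1, without CAOV3 ascites 2 or without TOV21G ascites 2. The differences were 0.53 for TNFAIP3 (0.23 to 0.84, limma adjusted p = 0.171), 0.47 for PTX3 (0.19 to 0.75, 0.182), 0.33 for BIRC3 (0.16 to 0.50, 0.107) and 0.28 for SOD2 (0.13 to 0.42, 0.116). PTX3 was called without CAOV3 control 3. Among the inhibitors the difference was 0.28 for NFKBIE and 0.25 for NFKBIA, and among the subunits 0.12 for NFKB1, 0.16 for NFKB2 and 0.18 for RELB, each of the last 3 with an interval that included 0. ICAM1 thus had a negative estimated difference on the log2 scale and the other 9 members positive ones.

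The wider pathway was followed in 92 further genes, listed by role, of which 79 had values and 78 were tested. In CAOV3, 5 were called higher and none lower by limma, where 0.636% of tested genes were called higher and 1.1% lower, and their median log2 change was 0.05. IRF1, an interferon regulatory transcription factor, read 499.4, 548.6 and 573 in controls and 801.9, 758.7 and 779.6 with ascites (1.45-fold, limma adjusted p = 0.000859). PLAU, the urokinase plasminogen activator, read 601.5, 588.4 and 552.2 against 747.2, 799.5 and 792.9 (1.34-fold, 0.00128). The macrophage growth factor CSF1 rose from 128.1 ± 6.66 to 170.4 ± 14.1 (0.0163), and the chemokine CXCL2 from 7.38 ± 2.84 to 16.5 ± 2.85 (0.0205). The interleukin-1 receptor IL1R1 rose from 2.08 ± 1.99 to 10.1 ± 2.07 (0.0351), a gene of a few reads per library. The calls of IRF1 and PLAU held in all 12 fits without 1 library, that of CXCL2 in 10, of CSF1 in 8 and of IL1R1 in 6, and edgeR did not call CXCL2 (0.0571) or IL1R1 (0.0563). edgeR called 7 pathway genes in CAOV3, 6 higher and 1 lower, where it called 2.9% of tested genes either way and 1.15% higher, and DESeq2 called 7 where it called 2.88%. Beside IRF1, PLAU and CSF1, those of edgeR were BCL3, an IkB family protein (871.9 to 1075, adjusted p = 0.0195), TNIP2, a partner of TNFAIP3 (651.3 to 761.8, 0.0347), GADD45B, a stress response protein (1460 to 1750, 0.00514), and, lower, the receptor TLR4 (1211 to 966.1, 0.00757). limma called none of those 4.

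In TOV21G limma called none of the 78, where it called 0.409% of tested genes either way. An unadjusted p under 0.05 was found for 19 of the 78, against 9.17% of tested genes. edgeR called 10 of them higher (0.29% of tested genes) and DESeq2 9 (0.295%). The 10 were the ligand TNF, the kinase MAP3K14, which drives the non-canonical branch, the IkB family gene NFKBIZ, the negative regulator TNIP1, the chemokines CXCL1, CXCL2 and CXCL8, the cytokines IL6 and CSF1, and PLAU. TNF read 292.7, 269.4 and 270.1 in TOV21G controls and 482, 510.6 and 479.6 with ascites (limma adjusted p = 0.0869, edgeR 0.000135). IL6 read 572.3, 505.3 and 495.3 against 826.6, 838.9 and 855.5 (limma adjusted p = 0.545, edgeR 0.000135). Neither gene's TOV21G groups overlapped, and in CAOV3 TNF was listed at 0 in all 6 libraries and IL6 at 0 to 2.19. The limma fit estimated 1 spread per gene over both lines, and fitted to the TOV21G libraries alone it called 4 of the pathway genes and 22 genes (0.141%) of the 15595 then tested.

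By role, all 19 tested genes among the other direct targets had a log2 change above 0 in TOV21G (median 0.17), as did 41.7% of all tested genes, and 15 of 19 in CAOV3 (median 0.28), as did 47.7% of all tested genes. Such counts and medians include genes that passed the filter through the other line alone. With ascites, SAA1, IL6 and CXCL1 had means of only 1.02, 1.07 and 1.36 in CAOV3. In TOV21G, PTGS2 and CSF2 had means of 0.55 and 0.57 with ascites. The 4 other IkB family genes were above 0 in both lines (medians 0.14 and 0.19). The 3 tested ligands had medians of 0.14 in TOV21G and 0.33 in CAOV3, where all 3 lay near 0. In CAOV3 LTB read 1.795 ± 1.71 without and 2.41 ± 2.34 with ascites, TNFSF13B 0.74 ± 0.64 and 1.39 ± 0.57, and TNF 0. The CAOV3 median of the ligands thus rests on a few reads. The 6 tested survival targets had medians of 0.04 and 0.01, and the 9 other negative regulators 0.077 and -0.025. The 16 adaptors and ubiquitin ligases had medians of -0.04 in TOV21G and 0.02 in CAOV3, the 7 kinases 0.000 and 0.015, and the 12 receptors -0.04 and 0.08. Of the other subunits, RELA read 2404 ± 114 and 2323 ± 172 without and with ascites in TOV21G, and REL 545 ± 93.4 and 689.8 ± 95.9, and neither was called.

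**Figure D5:**
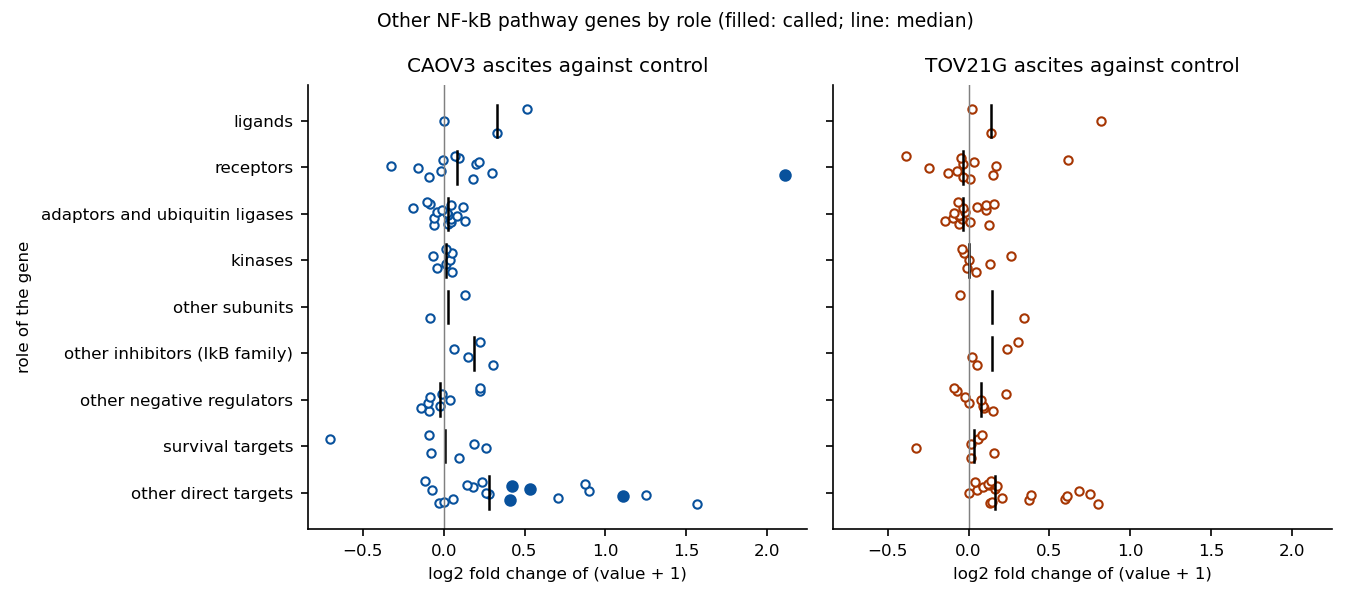
log2 fold change with ascites (x axis) of 78 other NF-kB pathway genes grouped by role (y axis), in CAOV3 (left) and TOV21G (right); each point is a gene, filled where limma called it, and the black line is the median of the role. The 5 filled points are in CAOV3, and the direct targets had medians of 0.28 and 0.17, genes near 0 in the line included.

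The survival gene GADD45B was the pathway gene whose response differed between the lines by limma. It read 1496, 1421 and 1462 in CAOV3 controls and 1782, 1674 and 1796 with ascites, and 94.3, 83.9 and 96.9 in TOV21G controls and 81.2, 72.6 and 65.3 with ascites. The treated libraries lay above the controls in CAOV3 and below them in TOV21G. The difference was -0.59 on the log2 scale (95% interval -0.84 to -0.33, limma adjusted p = 0.0482), and it stayed called in 2 of the 12 fits without 1 library.

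Before treatment 48 of the 78 pathway genes were called higher in TOV21G and 23 lower, where 40.8% of all tested genes were called higher and 41.4% lower. The number called either way, 71 of 78, was near the background of 82.2%. IL6 and TNF had no read in CAOV3 controls and 524.3 ± 41.9 and 277.4 ± 13.2 in TOV21G, at least 493-fold and 261-fold higher when the CAOV3 group is set at 3 reads. The chemokine CXCL1 (0.38 against 6974 ± 405), the decoy kinase IRAK3 (0.71 against 1246 ± 56.0) and the receptor TNFRSF11A (9.95 against 906.3 ± 34.8) were also higher in TOV21G. CAOV3 held more of the receptors TNFRSF1B (1189 ± 47.2 against 2.08) and TLR4 (1211 ± 70.7 against 3.57) and of the cyclooxygenase PTGS2 (1130 ± 69.6 against 0.35). Receptors and cytokines were thus among the pathway genes that differed most between the lines, in both directions.

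The members were also compared from library to library. After centring each gene within its line, every member was compared over the 12 libraries with the mean of the other 9. Pearson's r was 0.94 for SOD2, 0.93 for NFKB2, 0.92 for BIRC3, 0.89 for NFKBIE, 0.86 for RELB, 0.83 for TNFAIP3, 0.82 for PTX3, 0.81 for NFKBIA, 0.75 for NFKB1 and 0.48 for ICAM1. ICAM1, the gene called in CAOV3, was thus the least like the rest. Among 10276 non-member genes with a mean of at least 100 in both lines, those most like the members' mean were SDC4 (r = 0.97), a cell surface proteoglycan, SHH (0.93), the hedgehog ligand, ELF3 (0.92), an epithelial transcription factor, TGIF2 (0.90) and the kinase SGK1 (0.88). SDC4 read 5681 ± 286 in TOV21G controls and 7225 ± 635 with ascites, and ELF3 173.9 ± 9.90 and 282.6 ± 32.0. These r values are descriptions over libraries that share their treatment, scaling and library-wide deviations.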

How the data were processed

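RNA of 12 libraries (4 groups of 3) was sequenced. Per the submitters' processing notes, the tools named are Trim Galore, cutadapt, STAR, HTSeq and DESeq, with no versions, roles or order. The authors deposited 1 normalised read count (a signal) per gene and library. Every value was within 0.01 reads of a whole multiple of 1 step per library (largest deviation 5.33e-05 reads), and the steps matched DESeq2's median-of-ratios size factors over all 12 libraries, so whole reads were recovered (26697609 to 34491304 per library). No gene with fewer than 10 reads in its highest library was listed. Of 19251 identifiers, 19087 were named from a gene name table, 136 from GENCODE 29, and 28 stayed unnamed.

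The main test was limma 3.58.1 (R 4.3.3; trend in eBayes) on log2(value + 1), which understates changes of low genes, over all 12 libraries with a mean per group. Genes needed a value of at least 10 in at least 3 libraries (17616). Two-sided p-values were Benjamini-Hochberg adjusted within each contrast over all tested genes, and genes under 0.05 were called. Alternatives were pseudocounts of 0.5 and 5, no filter, a minimum of 50, TMM and within-line scaling, edgeR 4.0.16, DESeq2 1.42.0, separate fits, array weights, a replicate block, leaving out each library, and, added after seeing the data, leaving out TOV21G control 1 and ascites 2. On reads simulated for TOV21G ascites against control over 17616 genes, limma recovered 91% of 100 genes changed 1.5-fold and 96% of 100 changed 2-fold. Of its 207 calls there, 20 were false, a share above the adjusted p threshold of 0.05. For edgeR it was 22 of 220 calls and for DESeq2 22 of 219. The simulated reads varied independently, without the library-wide deviations of the TOV21G libraries, and only genes with a mean of at least 100 were changed. These shares therefore do not give the recovery or the share of false calls in the real libraries.

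The members and lists were chosen with earlier results of these data known. The text names all members, every called pathway gene (at most 10 by size; 8 at baseline) and the 5 genes most like the members. Pathway genes that edgeR alone called, RELA, REL and the marker genes were added for the text. One marker check is not reported here.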

Additional observations from a re-analysis of the deposited data

Results flagged for a closer look

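For 4 of the 78 pathway genes the 3 treated libraries lay all on one side of the controls in CAOV3 and all on the other in TOV21G, a split seen in 170 tested genes (0.965%) in all. limma called none of the 4 within either line. GADD45B had the difference in response that limma called, at -0.59 on the log2 scale (TOV21G minus CAOV3, adjusted p = 0.0482). It was 1460 ± 37.5 without and 1750 ± 66.8 with ascites in CAOV3, and 91.7 ± 6.90 and 73.0 ± 7.93 in TOV21G (SD, n = 3 each).

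For the other 3 the difference itself was tested and not called. IL1RAP, the accessory chain of the interleukin-1 receptor, read 272.4 ± 13.4 and 336.8 ± 47.0 in CAOV3 and 2886 ± 46.0 and 2642 ± 113 in TOV21G, a difference of -0.425 (limma adjusted p = 0.182). CYLD, a deubiquitinase that restrains NF-kB, read 933.1 ± 4.97 and 876.4 ± 23.6 in CAOV3 and 1188 ± 44.4 and 1322 ± 20.9 in TOV21G, a difference of 0.245 (limma adjusted p = 0.110). CFLAR, an inhibitor of caspase activation, read 2285 ± 28.2 and 2166 ± 79.5 in CAOV3 and 2144 ± 47.6 and 2394 ± 111 in TOV21G, a difference of 0.236 (limma adjusted p = 0.138).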

How the results depend on the processing

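Counts of called genes depended on the fit more than the members' estimates did. The main limma fit called 1 member, 5 pathway genes and 305 of all tested genes in CAOV3, 4, 0 and 72 in TOV21G, 0, 1 and 96 for the difference in response, and 9, 71 and 14480 at baseline. The baseline counts stayed within 1.5 times those values under every alternative run, the member count being 9 or 10. The cause of the shifts below was not tested.

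In CAOV3, 2 members were called with TMM or within-line scaling, with array weights, and with TOV21G control 1 and ascites 2 left out (BIRC3 and ICAM1 each time), and 2 with only the CAOV3 libraries fitted (NFKB2 and ICAM1). Pathway calls there were 13 with CAOV3 alone, 13 with array weights and 10 without the pair of libraries, and calls over all genes were 511 by edgeR, 507 by DESeq2, 1295 with CAOV3 alone, 837 with array weights and 614 without the pair. In TOV21G, member calls were 9 by edgeR, 9 by DESeq2 and 10 with array weights. Pathway calls there were 10 by edgeR, 9 by DESeq2, 25 with array weights, 4 with TOV21G alone, 2 at a pseudocount of 5, 2 with within-line scaling, and 1 with TMM, with a minimum of 50 or without the pair. Calls over all genes there were 114 by edgeR, 150 by DESeq2, 2434 with array weights and 22 with TOV21G alone. For the difference, member calls were 3 with TMM and 3 with within-line scaling (BIRC3, SOD2 and ICAM1 each time), 4 by edgeR, 4 by DESeq2 and 7 with array weights. Pathway calls were 0 at a pseudocount of 0.5, 2 with within-line scaling, 2 by edgeR, 3 by DESeq2, 13 with array weights and 2 without the pair, and calls over all genes were 155 with within-line scaling, 148, 212 and 1403 by edgeR, DESeq2 and array weights, and 178 without the pair. The array weights ran from 0.367 to 4.01, with the lowest for TOV21G control 1. TOV21G control 3 and ascites 1 had weights of 4.01 and 3.39, and the other TOV21G libraries 0.367 to 0.58. The weighted calls in TOV21G thus rest mostly on 1 library per group.

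Leaving out 1 library at a time gave 1 member call in CAOV3 in every fit, 3 to 6 pathway calls and 172 to 344 calls over all genes. In TOV21G it gave 2 to 4 member calls, 2 without any 1 of the 6 TOV21G libraries, 0 to 1 pathway calls and 24 to 136 over all genes. For the difference it gave 0 to 1 member calls, 0 to 3 pathway calls and 40 to 146 over all genes. At baseline it gave 9 member calls, 68 to 72 pathway calls and 14020 to 14575 over all genes.

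Libraries with the same replicate number did not deviate together: the correlations of their deviations over 11886 genes were -0.07, 0.06 and 0.01 in CAOV3 and -0.16, -0.42 and 0.07 in TOV21G. The numbers were therefore not taken to pair the libraries, and not every library correlated best with its own number. In TOV21G the correlation was 0.46 for control 1 with ascites 2 and 0.32 for control 2 with ascites 3. The other TOV21G pairs with unlike numbers ran from -0.34 to 0.14. What those libraries shared was not tested. With a replicate block, 1 member, 2 pathway genes and 116 genes in all were called in CAOV3, 1 (BIRC3), 0 and 13 in TOV21G, 0, 0 and 9 for the difference, and 9, 71 and 14379 at baseline.

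The sign of small member changes in CAOV3 turned when single CAOV3 libraries were left out: the lowest and highest log2 changes over the 12 such fits were -0.036 and 0.011 for NFKB1, -0.070 and 0.012 for NFKBIA, -0.005 and 0.107 for NFKBIE, -0.028 and 0.193 for TNFAIP3, and -0.092 and 0.103 for PTX3, which also turned to -0.056 with array weights. At baseline SOD2 ran from -0.042 to 0.034 over those fits, and turned to 0.015 with TMM, 0.165 with within-line scaling, 0.007 by edgeR and 0.017 with array weights. Scaling within lines moved the median of all genes at baseline to 0.14, and no other scaling moved a median by over 0.1. Depth limits IL1R1 and CXCL2 in CAOV3, which had few reads per library.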
